A study of Mus musculus with 12 samples.

Results

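Ctnnb1, Foxp1, Foxp2, Tgfbr2, Asxl2 and Smad5 are 6 regulators of signalling and transcription, out of 24391 genes counted in the anterior hard palate of mouse embryos. They were chosen by their measured levels: at E14.5 (embryonic day 14.5) each differed strongly between mutants and controls, and for Ctnnb1, Foxp1 and Tgfbr2 the groups lay closer at E16.5. Asxl2 and Smad5, which were lower in the E14.5 mutants, were taken as a contrast. All 6 passed the low-count filter of every fit.

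The mutants were Shox2-Cre;R26R-Fgf8 embryos, which carry a Cre recombinase driven by Shox2 and, at the Rosa26 locus, an Fgf8 transgene that Cre activates, so only cells that have expressed Shox2 can make the added Fgf8. The controls were labelled wild type, and all embryos C57BL/6. The groups were mutants at E14.5, controls at E14.5, mutants at E16.5 and controls at E16.5, each with 3 libraries, 12 in total. Whether 1 embryo or a pool gave each library is not stated, so p-values measure only the spread between these libraries. Because whole tissue was sequenced, fewer cells expressing a gene and less RNA per cell cannot be told apart.

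Ctnnb1 encodes beta-catenin, which links cadherins to the cytoskeleton at cell junctions and, when Wnt signalling protects it from destruction, acts in the nucleus with TCF and LEF factors. Foxp1 and Foxp2 are forkhead repressors of transcription. Tgfbr2 is the receptor that binds TGF-beta and activates the type I receptor Tgfbr1, and its loss in the neural crest is a known cause of cleft palate in mice. Asxl2 is a chromatin regulator that works with the deubiquitinase Bap1 on the histone mark of Polycomb, and Smad5 carries BMP signals to the nucleus, the pathway best known for inducing bone.

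Total counts ran from 76417891 to 125996587 per library. At E14.5 Fgf8 was at 10.8 ± 0.275 CPM in mutants, against 0.316 ± 0.0938 CPM in controls (mean ± SD, n = 3 each). At E16.5 it was at 16.1 ± 1.93 CPM in mutants, against 0.383 ± 0.110 CPM in controls (n = 3 each). No library thus went against its genotype label, but Fgf8 cannot check the age labels of the controls. CPM are a gene's counts relative to the library total, scaled by edgeR's TMM factors. All 7 anterior palate mesenchyme markers were detected in every group. They summed to 1240.4 to 1366 CPM in mutants and 1234 to 1329 CPM in controls at E14.5, with 2 of 7 called higher, and to 694 to 848 CPM in mutants and 575 to 639 CPM in controls at E16.5, with 4 of 7 called higher. Osteoblast markers summed to 837 to 868 CPM in E14.5 mutants against 2442 to 2941 CPM in E14.5 controls, and to 123 to 131 CPM in E16.5 mutants against 479.9 to 604 CPM in E16.5 controls, with 5 of 5 lower at each age. Endothelial markers were lower in mutants at E14.5 (4 of 4) and higher at E16.5 (4 of 4). Epithelial markers summed to 1143 to 1178 CPM in E14.5 mutants and 663 to 1106 CPM in E14.5 controls (1 of 5 higher). At E16.5 they summed to 4136 to 7039 CPM in mutants and 6172 to 6679 CPM in controls (1 of 5 lower). Posterior palate markers summed to 253 to 287 CPM in E14.5 mutants and 201 to 276 CPM in E14.5 controls (1 of 3 higher). At E16.5 they summed to 136 to 151 CPM in mutants and 84.3 to 97.9 CPM in controls (2 of 3 higher). Beside these marker counts, 2.95% of all genes tested were called higher and 4.57% lower at E14.5. At E16.5 the shares were 12.2% higher and 15.7% lower. Xist, made from the inactive X chromosome of females, averaged 486 CPM in mutants and 779.96 CPM in controls at E14.5, and 899 CPM in mutants and 404 CPM in controls at E16.5. Libraries 1 and 3 of the E16.5 mutants stood apart by Fgf15, at 40.4 and 21.2 CPM against 0.0901 to 0.942 CPM in the other 10 libraries. Neuronal markers summed to 22.7, 71.2 and 123 CPM in E16.5 mutants, from lowest to highest, all above the 13.0 to 16.0 CPM of E16.5 controls. At E14.5 they summed to 45.9 to 52.5 CPM in mutants and 38.2 to 69.9 CPM in controls. The part of these differences in the results for the 6 genes was not tested.

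The start-site windows of the genes that share the low E14.5 control level, and that of Asxl2, are shown because a reader may want to compare the DNA around transcripts that moved together. They are RefSeq windows of build GRCm38.p6, from 250 bases before to 50 after the start, the most upstream one where a gene had several, and 5 of the 6 genes matched. Capitals mark the only match to a searched motif, CCGGAAG, the core bound by ETS factors, which act downstream of FGF signalling.
Ctnnb1 promoter, chr9:120933150-120933449, plus strand: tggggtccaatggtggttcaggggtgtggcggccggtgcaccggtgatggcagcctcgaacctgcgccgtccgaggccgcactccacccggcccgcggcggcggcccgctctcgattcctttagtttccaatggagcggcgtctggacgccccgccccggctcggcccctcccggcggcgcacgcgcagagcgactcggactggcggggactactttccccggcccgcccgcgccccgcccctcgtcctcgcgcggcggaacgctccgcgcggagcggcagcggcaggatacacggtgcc
Foxp1 promoter, chr6:99520944-99521243, minus strand: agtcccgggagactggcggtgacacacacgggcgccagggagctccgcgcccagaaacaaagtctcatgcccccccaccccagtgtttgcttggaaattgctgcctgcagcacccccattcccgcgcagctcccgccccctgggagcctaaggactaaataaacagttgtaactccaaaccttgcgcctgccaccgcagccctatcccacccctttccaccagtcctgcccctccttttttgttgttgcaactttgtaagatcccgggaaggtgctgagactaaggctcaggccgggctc
Tgfbr2 promoter, chr9:116175314-116175613, minus strand: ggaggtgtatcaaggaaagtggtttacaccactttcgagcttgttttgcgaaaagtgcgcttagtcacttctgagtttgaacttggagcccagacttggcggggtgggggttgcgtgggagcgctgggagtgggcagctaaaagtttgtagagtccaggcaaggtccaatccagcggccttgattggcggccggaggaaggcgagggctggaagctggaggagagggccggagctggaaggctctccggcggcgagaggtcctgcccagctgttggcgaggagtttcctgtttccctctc
Asxl2 promoter, chr12:3426607-3426906, plus strand: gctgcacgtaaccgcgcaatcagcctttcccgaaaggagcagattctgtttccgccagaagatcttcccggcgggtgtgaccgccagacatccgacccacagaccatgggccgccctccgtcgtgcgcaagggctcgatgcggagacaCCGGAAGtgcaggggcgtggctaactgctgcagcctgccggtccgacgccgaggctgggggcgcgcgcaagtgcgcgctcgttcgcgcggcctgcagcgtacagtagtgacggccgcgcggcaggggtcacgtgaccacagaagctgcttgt
The match in the Asxl2 window began 102 bases before the start. Both strands of each of the 5 windows were searched for that motif, for CTTTGA of TCF and LEF factors, for GTAAACA of forkhead factors and for the palindrome GTCTAGAC of SMAD proteins, and the other 3 motifs had no match in them. Among all 32851 windows of the same length, 8.86% held the ETS motif, 16.0% the TCF and LEF motif, 3.65% the forkhead motif and 0.213% the SMAD motif. The GC content was 75.3% for Ctnnb1, 60.3% for Foxp1, 59% for Tgfbr2 and 67% for Asxl2, beside a median of 52.7% over all windows.

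Ctnnb1 was abundant in every group but the E14.5 controls. It had 1873, 1792 and 1845 CPM in E14.5 mutants, against 212, 231 and 262 CPM in E14.5 controls. At E16.5 it had 1567, 1806 and 1692 CPM in mutants and 1846, 1866 and 1856 CPM in controls. The 3 E14.5 controls stood alone: every other library held at least 5.99 times the highest of them. At E14.5 the mutant mean was 1837 ± 41.2 CPM and the control mean 235 ± 25.1 CPM (SD, n = 3 each), a log2 fold change of 2.97 (SE 0.08). At E16.5 the means were 1688 ± 119 CPM in mutants and 1856 ± 9.69 CPM in controls, a log2 fold change of -0.11 (SE 0.07). In a separate fit of all 12 libraries, the genotype effect at E16.5 minus that at E14.5 was -3.10 on the log2 scale. E14.5 mutants overlapped both E16.5 groups, while each E16.5 mutant lay slightly below each E16.5 control. Per kilobase of its longest coding transcript (3623 bases) Ctnnb1 was at 507 CPM in the mutants and 64.8 CPM in the controls of E14.5, the highest of the 6 genes in both groups. These genotype values at E14.5 and E16.5 chose the gene and are given with no test.

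**Figure D1:**
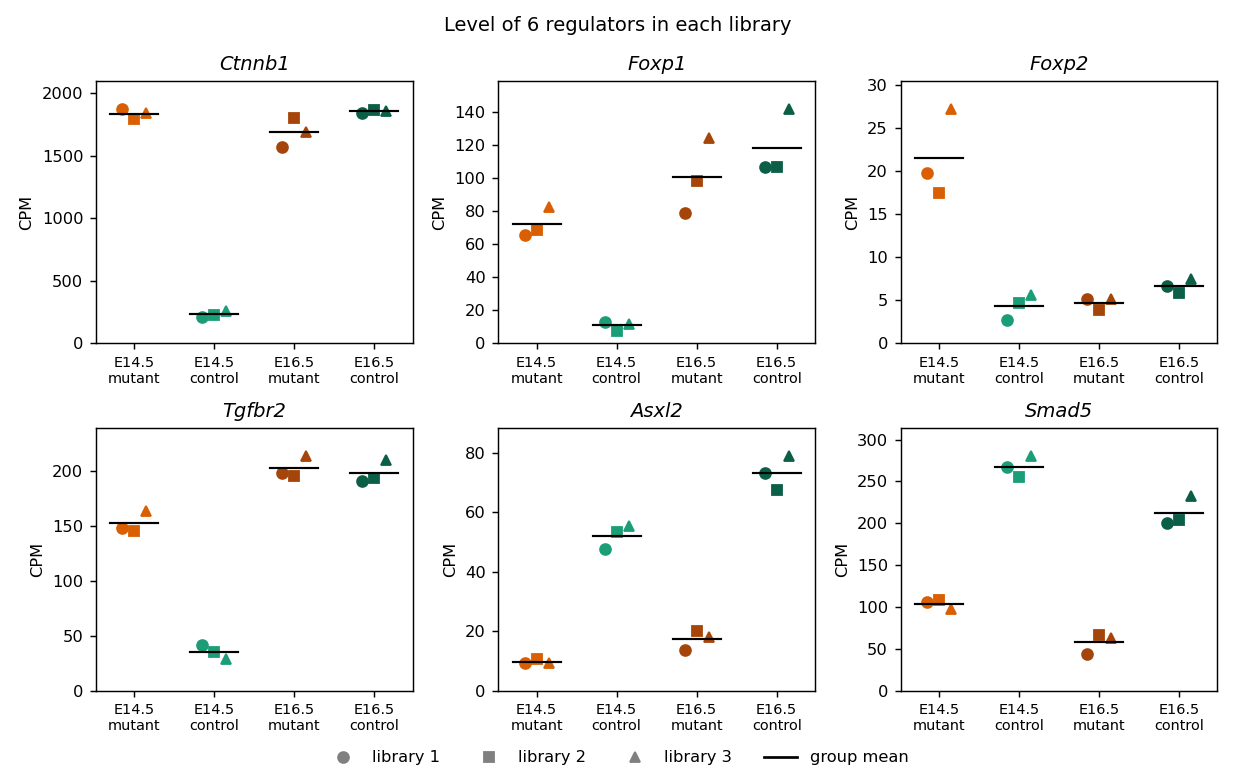
CPM (vertical axis, starting at 0) of the 6 genes in each library of the 4 groups; each point is a library, its shape the library number, and the bar the group mean. The E14.5 controls are the low group for Ctnnb1, Foxp1 and Tgfbr2, Foxp2 is high in E14.5 mutants alone, and Asxl2 and Smad5 are lower in mutants at both ages.

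Foxp1 had the same shape at a far lower level. Its CPM were 65.7, 68.9 and 83.0 in E14.5 mutants, against 13.0, 7.71 and 11.9 in E14.5 controls. At E16.5 they were 78.8, 98.6 and 125 in mutants and 107, 107 and 142 in controls. No E14.5 control came within 5.04 times of any other library, and the E16.5 groups overlapped. The log2 fold change was 2.74 (SE 0.17) at E14.5, from means of 72.5 ± 9.20 CPM in mutants and 10.9 ± 2.80 CPM in controls. It was -0.21 (SE 0.17) at E16.5, from means of 101 ± 23.0 CPM in mutants and 119 ± 20.2 CPM in controls.

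Tgfbr2, the TGF-beta receptor, had 148, 145 and 164 CPM in E14.5 mutants, against 41.2, 35.2 and 28.5 CPM in E14.5 controls. In E16.5 mutants it had 198, 195 and 213 CPM, and in E16.5 controls 190.5, 193 and 209.6 CPM. The lowest of the other 9 libraries was 3.52 times the highest E14.5 control, and the E16.5 groups overlapped almost fully. Means were 152 ± 10.2 CPM in mutants and 35.0 ± 6.36 CPM in controls at E14.5 (log2 fold change 2.12, SE 0.11), and 202 ± 9.64 CPM in mutants and 198 ± 10.4 CPM in controls at E16.5 (0.06, SE 0.07). E14.5 mutants lay below both E16.5 groups without overlap, at 0.753 of the E16.5 mutant mean and 0.770 of the E16.5 control mean.

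Foxp2 was not low in E14.5 controls alone. It had 19.8, 17.5 and 27.2 CPM in E14.5 mutants, against 2.75, 4.76 and 5.59 CPM in E14.5 controls. At E16.5 it had 5.19, 3.93 and 5.12 CPM in mutants and 6.63, 5.87 and 7.52 CPM in controls. The E14.5 mutants were the group that stood apart, at least 2.33 times above every other library, and the E14.5 controls overlapped the E16.5 mutants. Means were 21.5 ± 5.09 CPM in mutants and 4.37 ± 1.46 CPM in controls at E14.5 (log2 fold change 2.30, SE 0.24), and 4.75 ± 0.707 CPM in mutants and 6.67 ± 0.825 CPM in controls at E16.5 (-0.46, SE 0.16). Of 13700 genes with a log2 mean CPM above 1, Foxp2 was the only 1 whose E14.5 mutants all lay at least 2-fold above every other library, a point noticed after its values were seen. Its forkhead relative Foxp1 on the same chromosome, 6, thus shared its E14.5 direction but not its later level.

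Asxl2, the chromatin regulator, ran the other way. It had 9.27, 10.6 and 9.30 CPM in E14.5 mutants, against 47.6, 53.2 and 55.3 CPM in E14.5 controls. In E16.5 mutants it had 13.5, 20.02 and 18.2 CPM, and in E16.5 controls 73.1, 67.6 and 78.9 CPM. Each mutant lay below each control by at least 3.38-fold at both ages. The E14.5 log2 fold change, which chose the gene, was -2.42 (SE 0.09), from means of 9.72 ± 0.758 CPM in mutants and 52.0 ± 4.01 CPM in controls. Earlier results of these data were known when the 6 genes were chosen, but the choice of Asxl2 did not use the E16.5 libraries. There Asxl2 fell to 17.2 ± 3.37 CPM in mutants against 73.2 ± 5.64 CPM in controls, a log2 fold change of -2.07 (SE 0.13, 95% interval -2.37 to -1.76), with an adjusted p of 1.62e-05 by edgeR's quasi-likelihood test with Benjamini-Hochberg adjustment over all 17169 genes tested. Without mutant libraries 1 and 3 it was -1.86.

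Smad5, the BMP signal carrier, had 106, 108 and 97.6 CPM in E14.5 mutants, against 267, 256 and 280.2 CPM in E14.5 controls. It had 43.7, 66.7 and 62.8 CPM in E16.5 mutants, against 200.2, 204 and 233 CPM in E16.5 controls. As for Asxl2, every mutant lay below every control of its age, here by at least 2.36-fold. At E14.5 the log2 fold change was -1.36 (SE 0.07), from means of 104 ± 5.63 CPM in mutants and 268 ± 12.4 CPM in controls. At E16.5, which did not choose the gene, Smad5 fell to 57.7 ± 12.3 CPM in mutants against 212 ± 17.9 CPM in controls, a log2 fold change of -1.86 (SE 0.14, 95% interval -2.19 to -1.53, adjusted p = 3.97e-05 by the same edgeR test). In that comparison 15.7% of all genes tested were called lower and 12.2% higher, so a fall as such was common at E16.5. Osteoblast markers were lower beside Smad5 and Asxl2 at both ages, by the sums given above.

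Among 13700 genes, 557 (4.07%) had every mutant below every control at both ages, and 19 had it by at least 2-fold in each. Asxl2 ranked 4th and Smad5 14th by that smallest separation, a description only, since E14.5 chose both. The authors' deposited tables gave log2 fold changes for mutants over controls of 2.78 for Ctnnb1, 2.20 for Foxp1, 1.05 for Foxp2, 1.87 for Tgfbr2, -2.23 for Asxl2 and -1.30 for Smad5 at E14.5. At E16.5 the authors' deposited table gave -0.11 for Ctnnb1, -0.20 for Foxp1, -0.44 for Foxp2, 0.06 for Tgfbr2, -1.997 for Asxl2 and -1.79 for Smad5. The signs matched those fitted here in all 6 genes at both ages, and Foxp2 at E14.5 differed most in size.

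Between the ages, 27.2% of 17550 genes were called higher at E16.5 in the mutants and 24.4% lower, by edgeR's quasi-likelihood test on all 12 libraries. For Asxl2 and Smad5 the E16.5 libraries did not choose the gene, although the E14.5 mutant libraries did. This comparison therefore holds values that chose the genes, so their changes are given with no test. Asxl2 rose by 0.82 on the log2 scale in the mutants (SE 0.13), and Smad5 fell by 0.85 (SE 0.13). For the other 4 genes both ages' levels chose the gene, so the change in the mutants is given with no test. It was -2.18 for Foxp2 (SE 0.24), 0.47 for Foxp1 (SE 0.19), 0.41 for Tgfbr2 (SE 0.11) and -0.12 for Ctnnb1 (SE 0.07). In the controls, whose E14.5 levels chose the genes, the same interval of age brought log2 changes of 2.98 for Ctnnb1, 3.45 for Foxp1, 2.50 for Tgfbr2, 0.61 for Foxp2, 0.49 for Asxl2 and -0.33 for Smad5, given with no test.

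The low level in E14.5 controls was rare among all genes. Every E14.5 control lay at least 2-fold below all other 9 libraries for 11 of 13700 genes (0.0803%), and with no minimum gap for 894 (6.53%). Ranked by the gap (the lowest other library over the highest E14.5 control), Ctnnb1 was 1st at 5.99, Foxp1 2nd at 5.04 and Tgfbr2 5th at 3.52. Ctnnb1, Foxp1 and Tgfbr2 were chosen for this shape, so their ranks restate the choice and are a description only. The 5 other genes among the first 8 were Cdk6, a kinase of the cell cycle (4.63), Cldn2, a tight junction protein (3.77), Sox5, a cartilage transcription factor (2.54), Ppbp, a platelet chemokine (2.33) and Trp53, the p53 tumour suppressor (2.31). Ppbp, like Ctnnb1 and Tgfbr2, had E16.5 means that lay close together, at 9.25 CPM in mutants and 9.23 CPM in controls. Its E14.5 mutants averaged 3.75 CPM. Cdk6, Cldn2, Trp53 and Sox5 did not have close E16.5 means. At E16.5 Cdk6 averaged 24.9 CPM in mutants and 9.94 CPM in controls, and Cldn2 10.2 CPM in mutants and 22.0 CPM in controls. At E14.5 Cldn2 was low, at 1.33 CPM in mutants and 0.291 CPM in controls. Trp53 averaged 148 CPM in mutants and 35.8 CPM in controls at E14.5, and 309 CPM in mutants and 95.7 CPM in controls at E16.5. Sox5 averaged 22.6 CPM in mutants and 3.49 CPM in controls at E14.5, and 39.9 CPM in mutants and 11.8 CPM in controls at E16.5. Foxp2 ranked 8629th by this gap. The longest coding transcripts of Ctnnb1, Foxp1 and Tgfbr2 had 3623, 7177 and 8092 bases, beside a median of 3266 bases over the genes with a match in GENCODE M21 and 3344 bases over the 11 genes.

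**Figure D2:**
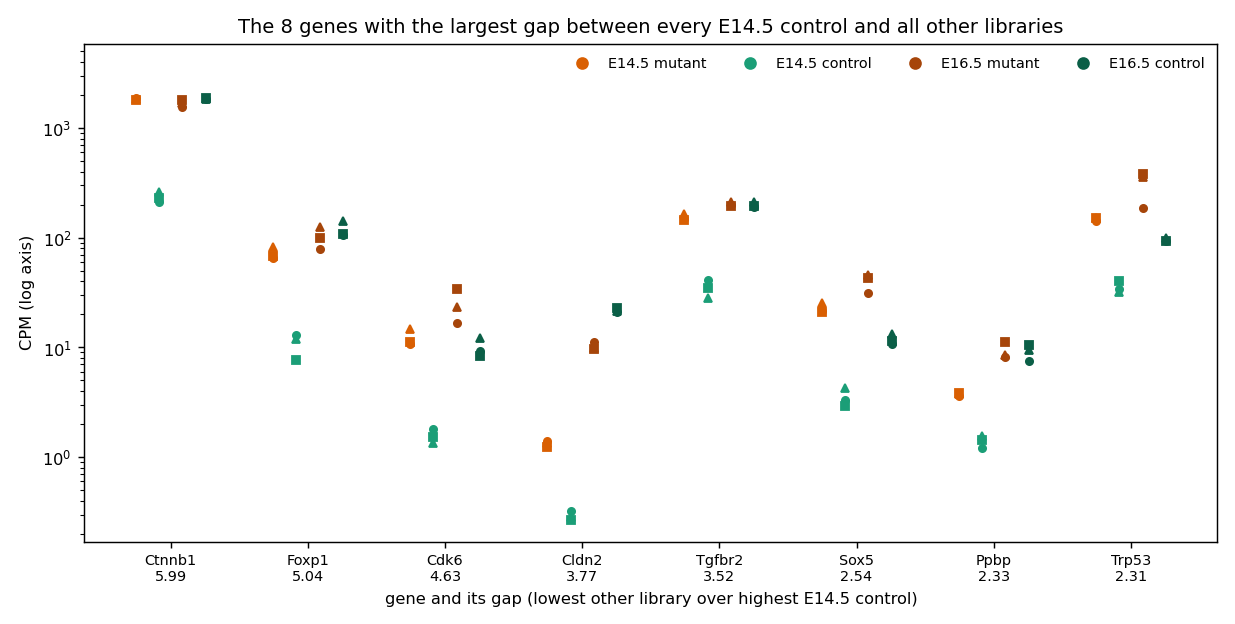
CPM (log axis) in each of the 12 libraries for the 8 genes with the largest gap, given under each name; colours are the groups, mutants left of controls at each age, and shapes the library numbers (circle 1, square 2, triangle 3). Ctnnb1, Foxp1 and Tgfbr2 have E16.5 groups that lie close together, while Trp53 averaged 309 CPM in E16.5 mutants and 95.7 CPM in E16.5 controls.

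Pearson's r of log2 CPM over the 12 libraries, among 2864 genes that varied, describes which profiles were most alike. The points share libraries and fall into 4 groups, and Ctnnb1, Foxp1 and Tgfbr2 were chosen for 1 shared shape over those groups, so r among these 3 restates the choice and no r is tested. For Ctnnb1 the 3 nearest genes were Tgfbr2 (r = 0.971), Foxp1 (0.966) and Tacr1, the receptor of substance P (0.957). For Foxp1 they were Tgfbr2 (0.982), Bhlhe22, a helix-loop-helix repressor (0.977), and Ctnnb1, and for Tgfbr2 they were Foxp1, Bhlhe22 (0.977) and Ctnnb1. For Foxp2 they were Sall3 (0.834), Fgf14 (0.683) and Tmem132b (0.680), and with Ctnnb1 Foxp2 had only 0.495. For Smad5 they were Mn1, a transcriptional regulator needed for the palate (0.979), Vit (0.976) and Lox, the collagen cross-linking enzyme (0.966). For Asxl2 they were Syne1 (0.924), Plxdc1 (0.852) and Hpse (0.845), and Asxl2 and Smad5 had r = 0.788.

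Of 9 close relatives of the 6 genes, Smad9 alone was called at E14.5 in the main fit. With the replicate number as a block, edgeR also called Foxp4 (adjusted p = 0.034) and Tgfbr3 (adjusted p = 0.0235) lower. Jup, the junction protein nearest to beta-catenin, had a log2 fold change of 0.15 at E14.5 (95% interval -0.11 to 0.40), from 137 ± 8.40 CPM in mutants and 124 ± 22.2 CPM in controls. Foxp4 had -0.16 (-0.30 to -0.02), Tgfbr1, the partner receptor, 0.08 (-0.10 to 0.26), and the co-receptor Tgfbr3 -0.23 (-0.47 to 0.02). Foxp3, the factor of regulatory T cells, was near the detection limit, at 0.127 CPM in mutants and 0.138 CPM in controls at E14.5. Asxl1 had -0.07 (-0.21 to 0.07), Asxl3 -0.14 (-0.31 to 0.04) and Smad1, the other main BMP SMAD, -0.10 (-0.24 to 0.04). For these genes each interval excludes changes of the size seen in its relative among the 6. Smad9 was at 32.8 ± 2.47 CPM in mutants and 42.2 ± 3.77 CPM in controls (log2 fold change -0.36, adjusted p = 0.0279), and lost its call without E14.5 mutant library 1 or 2 or control library 1 or 3. At E16.5 Smad9 rose while Smad5 fell: it had 53.4, 83.6 and 80.4 CPM in mutants against 10.5, 11.3 and 11.7 CPM in controls (log2 fold change 2.72, adjusted p = 1.1e-05).

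**Figure D3:**
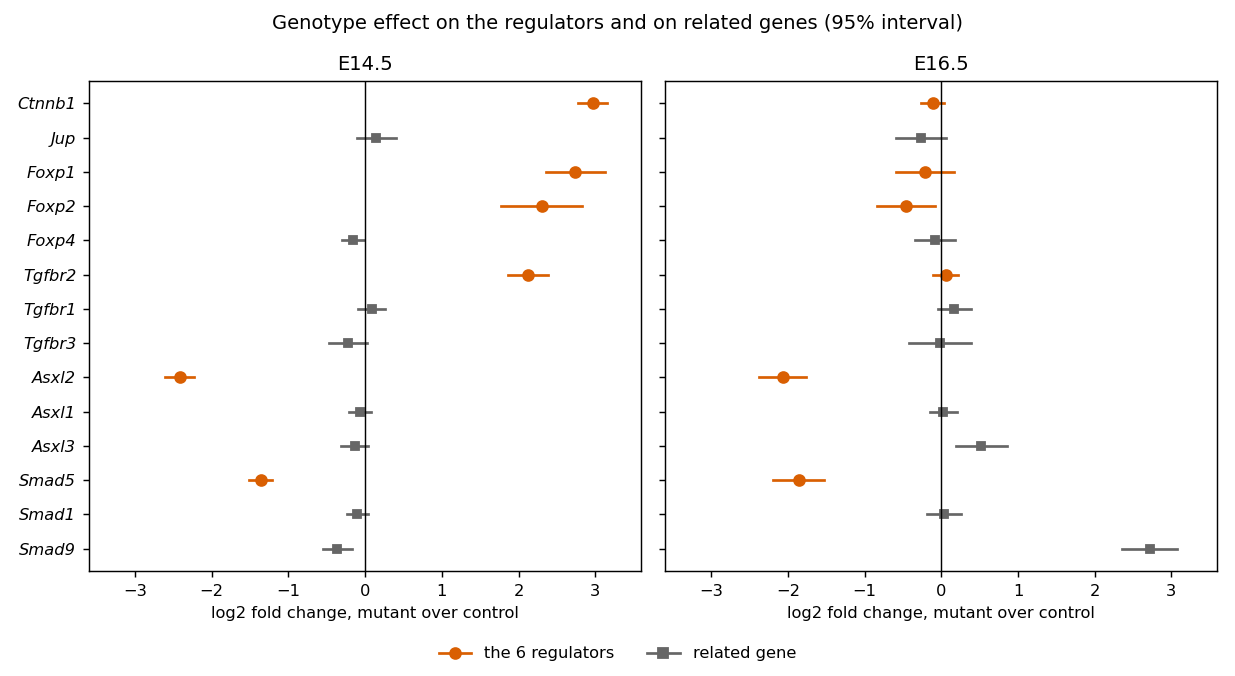
Log2 fold change of mutants over controls with its 95% interval at E14.5 (left) and E16.5 (right) for the 6 genes (circles) and related genes (squares). At E14.5 the related genes lie between -0.36 and 0.15, and at E16.5 Smad9 stands at 2.72 while Smad5 stands at -1.86.

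The 79 genes of 7 partner lists name proteins the 6 regulators work with, but also their relatives, such as other forkhead factors, and pathway targets. They were called lower more often than higher at E14.5. There 1 was called higher and 9 lower, beside 2.95% of all 16650 genes tested called higher and 4.57% lower, and the median log2 fold change of the 79 was -0.05, beside 0.01 over all genes. Without mutant library 1 the counts were 0 higher and 5 lower, and without control library 3 none was called higher. All genes called numbered 526 without mutant library 1 and 630 without control library 3, against 491 higher and 761 lower with all 6 libraries. Of the partners of beta-catenin, 0 of 10 destruction complex genes were called, 2 of 9 junction genes and 1 of 9 nuclear partners were lower. Tcf7, a DNA-binding partner of beta-catenin, fell to 59.7 ± 6.21 CPM in mutants against 95.9 ± 5.61 CPM in controls (log2 fold change -0.68, adjusted p = 0.000676). Cdh2, the junction cadherin of mesenchyme (-0.53), and Ctnna2, an alpha-catenin (-0.44), fell as well, but Cdh2 lost its call without mutant library 1 or 2, and Ctnna2 without mutant library 1 or control library 1 or 3. Axin2, a target of Wnt signalling and part of the destruction complex, had 56.5, 58.9 and 59.9 CPM in mutants against 58.7, 61.7 and 63.7 CPM in controls. That is a log2 fold change of -0.07 (95% interval -0.20 to 0.06), beside the 2.97 of Ctnnb1 itself.

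Of the TGF-beta list, 3 of 12 fell at E14.5 and 0 rose, opposite in direction to Tgfbr2. They were the ligands Tgfb1 (-0.47, adjusted p = 0.00801) and Tgfb3 (-0.36, adjusted p = 0.0068) and the signal carrier Smad3 (-0.36, adjusted p = 0.00287), each by the edgeR test. Of the BMP list of 13, the target Id1 rose (0.48, adjusted p = 0.0153) and Smad9 and the inhibitor Smad6 (-0.44, adjusted p = 0.0113) fell. Id1 lost its call without mutant library 1 or 2 or control library 3, and Smad6 without mutant library 1. Of 10 other forkhead genes, Foxo1 fell (-0.41, adjusted p = 0.00557), and of 16 genes of the Bap1 complex and Polycomb that work with or against Asxl2, 0 were called at E14.5. Ezh2 of that list was called higher at E14.5 with DESeq2 (0.18, adjusted p = 0.0249). With edgeR it was called with a filter of at least 5 CPM in 3 libraries (adjusted p = 0.0493) and with the replicate number as a block (adjusted p = 0.013).

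At E16.5, 14 of the 79 partner genes were called higher and 2 lower, beside 12.2% and 15.7% of all genes, with a median log2 fold change of 0.08 beside 0.01 over all genes. With the replicate number as a block, 22 were higher and 6 lower. The count called higher was 8 without mutant library 1, 9 without mutant library 3, 5 without control library 1 and 6 without control library 2. The count called lower was 1 without mutant library 1 or control library 1, and 0 without control library 2 or 3. All genes called numbered 3079 without control library 1 and 2781 without control library 2, against 2099 higher and 2694 lower with all 6 libraries. They ran from 2781 to 5486 with a library left out, and up to 6742 over all alternatives. Smad9, Tcf7 (0.61), Cdh11, a mesenchymal cadherin (0.66), Eng, a co-receptor of endothelium (0.86), and the BMP target Id3 (0.58) were called higher whichever library was left out. Eng stood beside endothelial markers that summed to 243 to 318 CPM in E16.5 mutants and 175 to 190 CPM in E16.5 controls, whose part was not tested. Apc2, a destruction complex gene best known from neurons, had 28.9, 11.1 and 23.2 CPM in mutants and 8.18, 7.45 and 9.56 CPM in controls, and Cdh2 had 63.8, 34.1 and 58.1 CPM in mutants and 29.9, 34.2 and 36.1 CPM in controls. For both, mutant libraries 1 and 3 were the high ones, and without them the log2 fold changes were 0.40 for Apc2 and 0.04 for Cdh2 (adjusted p = 0.145 and 0.898 by edgeR). Ctnna2 had 11.6, 3.17 and 6.70 CPM in mutants and 3.70, 2.50 and 3.47 CPM in controls (log2 fold change 1.19, adjusted p = 0.0626), and -0.02 without those libraries. Cdh2 (0.67, adjusted p = 0.0453) also lost its call with the replicate block (adjusted p = 0.0531) and without any 1 of the 6 libraries other than mutant library 2, and Apc2 (1.36, adjusted p = 0.0122) without control library 1 or 2. Tcf7l1 (0.48), a further nuclear partner, Foxm1 (0.26), a forkhead factor of dividing cells, Smad7 (0.67), an inhibitor of TGF-beta signalling, and the Polycomb methyltransferase Ezh2 (0.24) were called higher but not without control library 1 or 2. Foxm1, Smad7 and Ezh2 lost their calls without mutant library 1 too, and Smad7 without mutant library 3. Without mutant libraries 1 and 3 none of these 4 was called. With the replicate block Ctnna2 (adjusted p = 0.0246), Smad6 (0.0144) and Id1 (0.00925) were called higher and Tgfb3 (0.0185) lower, which they were not in the same edgeR fit without the block. Axin2 (-0.34, adjusted p = 0.0227) and Foxo3 (-0.38, adjusted p = 0.0277) fell, Axin2 losing its call without any 1 of the 3 control libraries, and Foxo3 without mutant library 1 or control library 2 or 3. Asxl3 was called higher (0.52, adjusted p = 0.029) but not without mutant library 1 or 3 or control library 1 or 2, and was 0.16 (adjusted p = 0.486) without both mutant libraries, while Asxl1 had 0.03 (95% interval -0.14 to 0.20) beside the -2.07 of Asxl2.

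**Figure D4:**
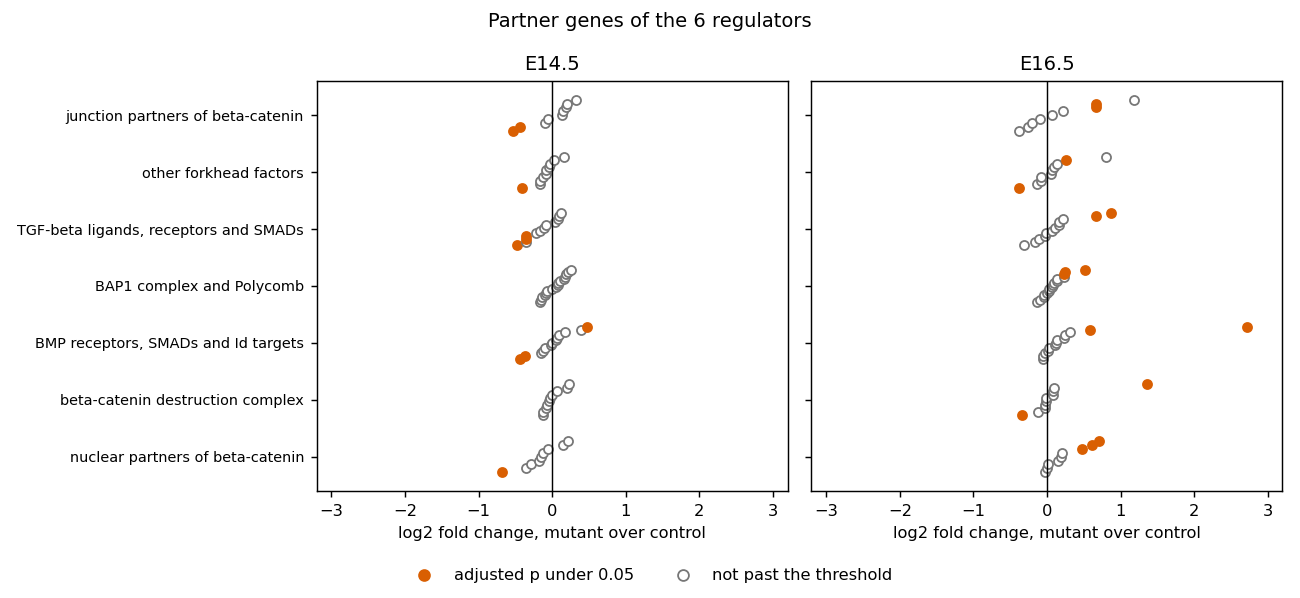
Log2 fold change of mutants over controls for the 79 partner genes in 7 lists at E14.5 (left) and E16.5 (right), each point a gene, filled where the edgeR adjusted p was under 0.05. The filled points lie mostly left of 0 at E14.5 (1 higher, 9 lower) and right of 0 at E16.5 (14 higher, 2 lower).

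The genotype effect differed between the ages, by the test of the difference in the fit of all 12 libraries, for 15 of the 79 partner genes, 13 of them with the larger value at E16.5, beside 22.3% of 17550 genes in either direction (1750 larger and 2171 smaller at E16.5). With the replicate block 32 of the 79 were called, beside 6055 of all genes, and without E16.5 mutant libraries 1 and 3 it was 9, beside 2017. Tcf7 had a difference of 1.27 (adjusted p = 3.41e-05) and Smad9 of 3.06 (adjusted p = 2.32e-06). Ctnnb1, Foxp1, Foxp2 and Tgfbr2 had differences of -3.10, -2.98, -2.79 and -2.09, which are descriptions because the ages' comparison chose these genes. Asxl2 and Smad5 had differences of 0.33 and -0.52. These are descriptions too, since each holds the E14.5 effect that chose the gene.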

How the data were processed

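Reads were aligned to mm9 with HISAT2 and counted with featureCounts, per the submitters' processing notes; versions, annotation and strand setting are not given in the sources used here. The authors deposited raw counts per gene for each library, and tables of log2 fold change from DESeq2, which are quoted as deposited. A further 24 columns, which repeat per-sample values in tables of the whole series, were left unused.

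The fits used edgeR 4.0.16 under R 4.3.3 (TMM, filterByExpr, quasi-likelihood test). Genotype was compared on the 6 libraries of an age; the change with age and the difference between ages came from 1 fit of all 12. The change with age in the mutants was planned as a test of all 6 genes but is given with no test. E14.5 mutant levels chose all 6, and levels at both ages chose the 4 other than Asxl2 and Smad5. Calls needed a Benjamini-Hochberg adjusted p below 0.05. The script was tested on simulated data. Levels are CPM with TMM factors from all 12 libraries. Likeness used log2(CPM + 0.5), genes with a log2 mean CPM above 1 and an SD of at least 0.5. Transcript lengths came from GENCODE M21.

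The 6 genes, the partner and marker lists and the rules for naming genes were chosen with earlier results of these data known. Named were the 6 genes, their closest relatives, up to 3 partner genes per list called at E14.5 and up to 2 at E16.5, the 8 genes of largest gap, the 4 of largest reverse gap and the 3 most alike per gene.

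Replicate numbers were checked for pairing by correlating same-numbered libraries' deviations from their group means over 17550 genes. The E16.5 groups gave 0.105, 0.161 and 0.222, all above 0.1, the limit set for pairing. Deviations within a group cancel out, so a shift in the libraries numbered 3 alone could raise all 3 values. Those libraries carry sample numbers from a separate run, and whether they were handled apart is not stated. Pairing was therefore not settled at E16.5, and the main fits hold no block. The E14.5 groups gave 0.0193, 0.0445 and 0.16, and the mutants of both ages -0.0239, 0.0106 and 0.159. Restricted to the 13463 more abundant genes (mean log2 CPM over 1), the libraries numbered 3 gave 0.559 at E14.5, 0.695 at E16.5 and 0.61 between the mutants, and the controls of both ages gave 0.149, 0.236 and 0.56; numbers 1 of the E14.5 groups and numbers 1 and 2 of the mutants stayed below 0.1. Alternatives were DESeq2 1.42.0, its size factors, other low-count filters, the replicate block, other sets of libraries and leaving out each library. The fits without E16.5 mutant libraries 1 and 3 were added after the data were seen and leave 1 mutant library, assumed to vary like the others.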

Additional observations from a re-analysis of the deposited data

Results flagged for a closer look

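The genotype effect on Ctnnb1 at E16.5 minus that at E14.5 was -3.10 on the log2 scale. It was singled out because every mutant lay above every control at E14.5 and below every control at E16.5. The same held for Foxp2, at -2.79. Neither difference was tested, since it chose the genes.

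Of the 79 partner genes 15 had a genotype effect that differed between the ages by edgeR's test of the difference, beside 22.3% of all genes. The 12 among the genes named, many of which were named because they were called at an age, follow (E16.5 minus E14.5, log2). In the BMP and TGF-beta pathways these were Smad9 (3.06), Eng (1.01), Tgfb1 (0.67), Smad6 (0.66) and Id3 (0.46). Among partners of beta-catenin they were Ctnna2 (1.60), Apc2 (1.45), Tcf7 (1.27), Cdh2 (1.17), Tcf7l1 (0.74) and Cdh11 (0.50). Asxl3, a relative of Asxl2, had 0.63. Ctnna2 lost this call without E14.5 mutant library 1, E14.5 control library 1 or 3, or E16.5 control library 2. Without E16.5 mutant libraries 1 and 3, Apc2, Asxl3, Cdh2, Cdh11 and Ctnna2 were not called.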

How the results depend on the processing

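The genotype effects on the 6 genes kept their direction under every alternative run, except for Tgfbr2 at E16.5, which ran from -0.01 to 0.09. Tgfbr2 at E14.5 was 1.94 in replicates 1 and 2 alone. The change of Foxp1 with age in the mutants was 0.48 with DESeq2, 0.53 with a 5 CPM filter, 0.46 with the replicate block and 0.48 in a fit of the 6 mutant libraries, and ran from 0.33 to 0.65 with 1 library left out. That of Tgfbr2 was 0.39 without E16.5 mutant libraries 1 and 3. Partner genes called higher at E14.5 numbered 5 with DESeq2, 2 with the 5 CPM filter, 10 with the block and 0 in a fit of all 12 libraries. They numbered 0 to 1 with a library left out. Those lower numbered 19 with the block and 5 to 11 with a library left out. With the block 3155 of all genes were called at E14.5. There the libraries numbered 3 deviated together (0.559 over the more abundant genes) and those numbered 1 did not (0.0783), so pairing at E14.5 was not settled. At E16.5 those higher numbered 22 with the block, 7 in replicates 1 and 2 alone, 5 without mutant libraries 1 and 3 and 5 to 16 with a library left out. Those lower numbered 4 with DESeq2, 6 with the block, 0 in replicates 1 and 2 alone, 4 in a fit of all 12 and 0 to 3 with a library left out. All genes called at E16.5 moved as well, to 2286 in replicates 1 and 2 alone and 2781 to 5486 with a library left out. Differences between ages numbered 32 with the block, 9 in replicates 1 and 2 alone and 9 without mutant libraries 1 and 3. Genes with E14.5 controls lowest numbered 24 at a gap of 1.5, 5 at a gap of 3 and 18 in replicates 1 and 2 alone, and those with E14.5 controls highest 67 and 9 at those gaps. Ctnnb1, Foxp1 and Tgfbr2, which were chosen for this shape, were among the lowest in each. With the block Asxl2 and Smad5 kept their calls at E16.5, the tests given for the 6 genes. The causes were not tested. With 3 libraries a group, small changes of partner genes may be missed.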

Other observations

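The reverse pattern, with every E14.5 control at least 2-fold above all other 9 libraries, was held by 27 genes, and the 4 with the largest gap follow. Dmp1, a regulator of mineralisation, averaged 3.92 CPM in mutants and 44.9 CPM in controls at E14.5, and 0.495 CPM in mutants and 4.01 CPM in controls at E16.5. Spp1, which encodes osteopontin, averaged 10.6 CPM in mutants and 141 CPM in controls at E14.5, and 5.58 CPM in mutants and 20.5 CPM in controls at E16.5. Ibsp, bone sialoprotein, averaged 393 CPM in mutants and 1775 CPM in controls at E14.5, and 33.8 CPM in mutants and 330.004 CPM in controls at E16.5. Col22a1, a collagen of tissue junctions, averaged 30.6 CPM in mutants and 146 CPM in controls at E14.5, and 2.40 CPM in mutants and 9.47 CPM in controls at E16.5. For these genes the E14.5 controls were the high group, where for Ctnnb1, Foxp1 and Tgfbr2 they were the low one.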
